A study of Bos taurus with 5 samples.

Results

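OXT, PENK and ASIP are genes of secreted peptides, and their mRNA signals differed more between follicles of the same group than between the mean of the largest follicles (F1) and that of the second-largest follicles (F2). They were 3 genes, each with 1 probe, of 10163 single-spot probes on a custom bovine oligonucleotide array. The members were chosen by their signals on these same arrays, so their values are given as a description and without a test. A probe was tested between F1 and F2 if all F1 or all F2 gave a signal well above background, which 5528 probes did, and OXT was the only member among them. PENK was well above background in 1 follicle and ASIP in 3, so neither passed that filter.

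Follicles were dissected from pregnant Japanese Black cows that had received no treatment named in the labels, and the age of the cows is not given in the sources used here. Stroma and theca externa were stripped off, and the methods describe RNA of the follicular wall, which holds the granulosa and the theca interna, whereas the labels describe extraction from whole follicles. Each of 3 F1 and 2 F2 was hybridized to an array of its own. The methods name 4 cows, of which 2 gave both an F1 and an F2, while the others gave an F1 alone or an F2 alone. All 3 F1 and 2 of the 3 F2 were arrayed, so some F1 and F2 arrays must share a cow. Which arrays these are is not said, and the phase of the follicular wave was not set at collection. The p-values below treat the 5 follicles as independent, although some share a cow, and measure the spread between these follicles.

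OXT encodes the precursor of oxytocin and of its carrier neurophysin, and in ruminants it is expressed by granulosa cells and strongly by the corpus luteum. PENK encodes proenkephalin, which is cut at pairs of basic residues into several enkephalins that act on opioid receptors. ASIP encodes agouti signaling protein, a secreted antagonist of melanocortin receptors that is best known for its control of coat pigment. Peptide precursors pass through the secretory pathway, where convertases such as PCSK1, carboxypeptidase E and the amidating enzyme PAM trim them.

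Each signal rests on a single probe of 60 bases, so probe sequences are shown, although the probes were not placed on a genome. The ASIP probe is given whole and the OXT and PENK probes by their last 30 bases, 5′ to 3′. Capitals mark AATAAA, the sequence of the common polyadenylation signal, in the PENK probe. Whether it serves as that signal there was not tested.
OXT: actccctctgtaatcatccccaggaattat
PENK: tttatttttgacacaatgccAATAAAtgcc
ASIP: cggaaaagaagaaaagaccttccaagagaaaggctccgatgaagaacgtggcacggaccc
AATAAA, searched on the strand of the probe alone, was found in 8.88% of all probes (902 of 10163). The GC content was 60% for the OXT probe, 35% for the PENK probe and 51.7% for the ASIP probe, against a median of 43.3% over all probes. No other probe on the array shared a run of 15 bases with any of these 3 probes.

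Signals are the background-subtracted signal of a spot divided by the median of the 100 GAPDH spots on the same array. The GAPDH spots of an array varied with a coefficient of variation of 6.54 to 15.8%. A spot counted as detected where the scanner software called it well above background, and the lowest such signal on an array lay between 0.0124 and 0.0208. Between 5465 and 5855 probes per array were detected, and 30 to 48 were saturated, none of them a member. For folds between follicles, each signal was raised to the lowest detected signal of its array, so that a fold against an undetected spot is a lower bound.

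OXT was detected in all 5 follicles. The signals of F1 replicates 1, 2 and 3 were 0.689, 0.155 and 0.978. Those of F2 replicates 1 and 2 were 4.24 and 0.384. F2 replicate 1 was the highest and F1 replicate 2 the lowest, and the other F2 lay inside the range of the F1, so the groups overlapped. The F1 averaged 0.608 ± 0.417 (SD, n = 3), and the F2 averaged 2.31 ± 2.73 (SD, n = 2).

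Read downwards, F2 replicate 1 had 4.34 times the OXT signal of F1 replicate 3. F1 replicate 3 had 1.42 times that of F1 replicate 1, which had 1.79 times that of F2 replicate 2, and F2 replicate 2 had 2.48 times that of F1 replicate 2. The error that the scanner software gave for these spots was at most 13.6% of the signal, so each step in this order was larger than the error of a spot. Within the groups, OXT ranged over 6.30-fold among the F1 and 11.0-fold between the F2. The log2 difference F1 minus F2 was -1.44, smaller than the log2 range of either group (2.66 for the F1, 3.46 for the F2).

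The direction of the OXT difference rested on F2 replicate 1. Without it the log2 difference was 0.29, toward the F1. Leaving out any other follicle kept OXT higher in the F2, with log2 differences from -3.17 to -0.64.

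PENK was detected in F2 replicate 2 alone. Its signal was 0.757 there and 0.00788 in F2 replicate 1. F1 replicates 1, 2 and 3 gave -0.0215, 0.0286 and -0.0256. Only F2 replicate 2 stood above background, and the signals of the other 4 follicles have no order. Values below 0 arise when the subtracted background exceeds the spot.

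The PENK signal of F2 replicate 2 was at least 52.3 times that of F2 replicate 1. It was at least 41.7, 26.5 and 61.3 times that of F1 replicates 1, 2 and 3. Before background subtraction, the mean intensity of the PENK spot was 857 in F2 replicate 2 and 202 to 282 in the other follicles, so the difference was also present in the raw signal. The spot error was 10.2% of the signal in F2 replicate 2. With signals raised to the lowest detected signal, the log2 difference F1 minus F2 was -2.50, and it was 0.36 without F2 replicate 2, when no follicle with a detected PENK signal was left.

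ASIP was detected in 3 follicles from both groups. F1 replicates 1, 2 and 3 gave 0.0151, 0.0222 and 0.858. F2 replicates 1 and 2 gave 0.306 and 0.00677. F1 replicate 3 and F2 replicate 1 were high, F1 replicate 2 was just detected with a spot error of 60.3% of its signal, and F1 replicate 1 and F2 replicate 2 were not detected. Each group thus held a high follicle and a follicle without a detected signal.

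F1 replicate 3 had 38.7 times the ASIP signal of F1 replicate 2 and at least 47.3 times that of F1 replicate 1. F2 replicate 1 had at least 18.3 times the signal of F2 replicate 2. Between the high follicles of the groups, F1 replicate 3 exceeded F2 replicate 1 by 2.81-fold, against a spot error of 10.03% and 10.3%. The log2 difference F1 minus F2 was -0.024 with signals raised to the lowest detected signal and 0.54 with a floor of 0.001 of the GAPDH median, so its direction depended on the floor. It ranged from -2.12 without F2 replicate 2 to 2.08 without F2 replicate 1 on the former scale, and was -1.83 without F1 replicate 3.

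**Figure D1:**
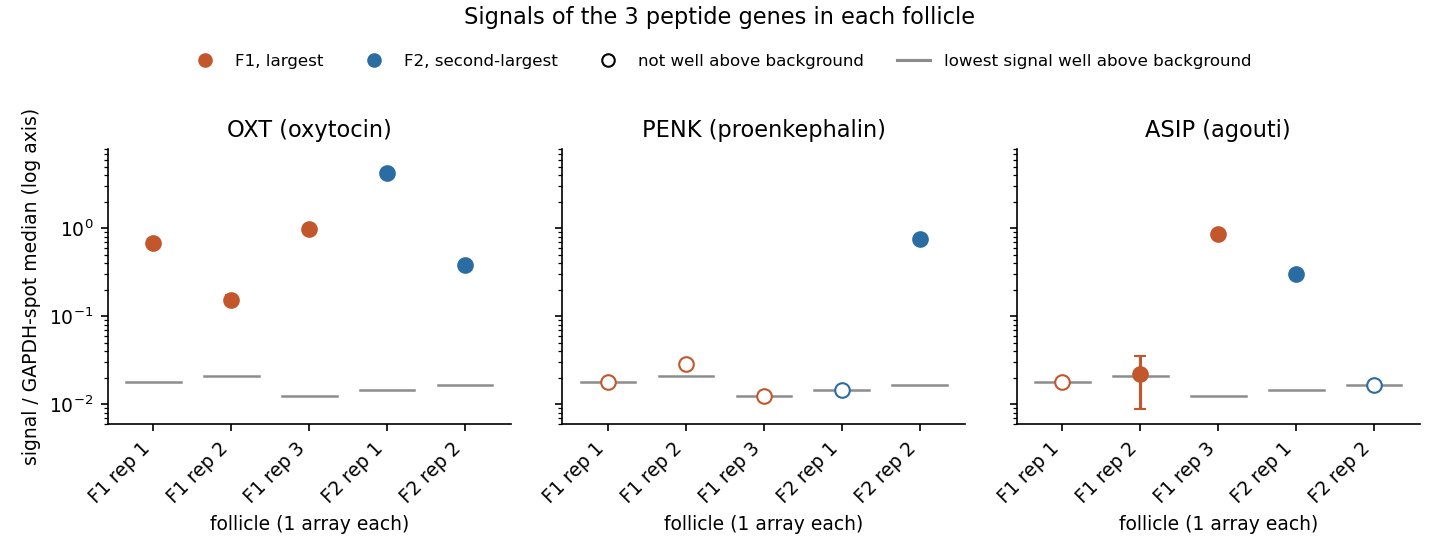
Signal over the GAPDH median (log axis) of the OXT, PENK and ASIP probes in each follicle, with bars for the error of the spot (smaller than most points), open points for spots not well above background (drawn no lower than the lowest detected signal) and grey lines for the lowest detected signal of each array. OXT was highest in F2 replicate 1 at 4.24, PENK was detected in F2 replicate 2 alone at 0.757, and ASIP was high in F1 replicate 3 and F2 replicate 1 at 0.858 and 0.306.

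In all 3 members the wider of the within-group log2 ranges exceeded the log2 difference of the group means. This was how the members were chosen. It was also common on the array, since the range exceeded the difference in 62.5% of the 5528 tested probes (63% with the floor of 0.001). The groups overlapped for OXT and ASIP. For PENK, only F2 replicate 2 was detected, so whether its groups overlapped cannot be told. With signals raised to the lowest detected signal, F1 and F2 did not overlap in 49% of the tested probes. The size of the ranges was less common. Over the 6681 probes detected on at least 1 array, the median fold range was 1.66 among the F1 and 1.32 between the F2, and the 99th percentile was 5.36 and 4.42.

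Among these 6681 probes, ASIP had the widest range in the F1 and the fourth widest in the F2. PENK had the widest difference between the F2. OXT was the 15th widest in the F2 and the 44th widest in the F1. For PENK in the F1, where no follicle had a detected signal, the range carries only the detection limits and a value of 0.0286.

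**Figure D2:**
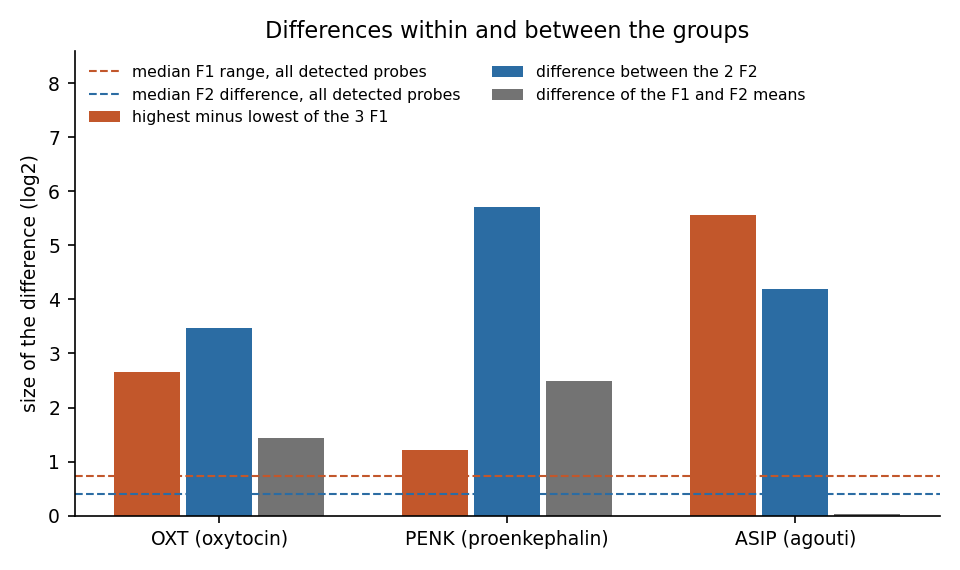
Size of the log2 difference within the F1 (highest minus lowest of 3), between the 2 F2, and between the group means (sign dropped) for each member, with signals raised to the lowest detected signal; dashed lines give the medians over 6681 detected probes. The within-group bars reach 3.46 for OXT, 5.71 for PENK and 5.56 for ASIP, each above the bar for the group means.

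The members did not share their high follicles. OXT peaked in F2 replicate 1, PENK in F2 replicate 2 and ASIP in F1 replicate 3 with F2 replicate 1. Over the 5 arrays, Pearson's r of the log2 signals was 0.68 between OXT and ASIP, -0.41 between OXT and PENK and -0.57 between PENK and ASIP, as a description of 5 points that share the GAPDH scale of their array.

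Few probes matched the patterns of the members. A signal at least 4 times that of every other follicle was found in F2 replicate 1 for 7 of the 6681 probes, OXT included. Of the other 6, those with a symbol were IL1RN, the antagonist of the interleukin-1 receptor, LOXL4, a lysyl oxidase, NT5E, which makes adenosine, and the convertase PCSK1. In F2 replicate 2 such a signal was found for 17 probes, among them PENK, the cytokine IL18, the cyclic nucleotide-gated channel CNGA3 and the glycolytic regulator PFKFB1. The ASIP pattern, with F1 replicate 3 and F2 replicate 1 each at least 4 times every other follicle, was shared by 1 other probe, which has no symbol here. Its signals were 0.0124, -0.00244 and 0.203 across the F1 against 0.189 and 0.0185 across the F2.

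The named probes most like each member were ranked by Pearson's r over the 5 arrays, among probes detected on at least 2 arrays with a range of at least 4-fold. These values describe 5 points and carry no test. For OXT, none of 1083 probes compared had r over 0.9. The nearest were FABP3, a fatty acid-binding protein (r = 0.85), STAR, which moves cholesterol into mitochondria (r = 0.78), LOC407171 (r = 0.74) and LOXL4 (r = 0.69). STAR gave 5.56, 3.14 and 5.33 across the F1 against 16.1 and 9.91 across the F2. It thus shared with OXT its highest follicle, F2 replicate 1, and its lowest, F1 replicate 2.

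For PENK, 28 of 1084 probes had r over 0.9. PENK was detected in F2 replicate 2 alone, so its r rested on that follicle. Any probe high there and near the detection limit elsewhere comes out close to 1. This count is therefore not comparable with that of OXT. Of the probes named next, SOCS3, LOC280930 and IL18 were each detected on 2 arrays. The nearest named probes were CA4, a carbonic anhydrase (r = 0.99), SOCS3, a feedback inhibitor of cytokine signaling (r = 0.96), NFKBIZ, a nuclear regulator of NF-kappa-B target genes (r = 0.95), LOC280930 (r = 0.93) and IL18 (r = 0.89). NFKBIZ gave 0.0990, 0.111 and 0.0894 across the F1 against 0.145 and 0.407 across the F2, so F2 replicate 2 was its highest follicle too.

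For ASIP, 2 of 1083 probes had r over 0.9, and neither has a symbol here. The nearest named probes were MFAP5, a microfibril protein (r = 0.82), LOC404103 (r = 0.75), OXT (r = 0.68), NPVF, the precursor of RFamide-related peptides (r = 0.53), and the troponin TNNT1 (r = 0.41). MFAP5 gave 0.0681, 0.0532 and 0.271 across the F1 against 0.116 and 0.113 across the F2. It was highest in F1 replicate 3, as ASIP was, but the F2 hardly differed from each other.

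**Figure D3:**
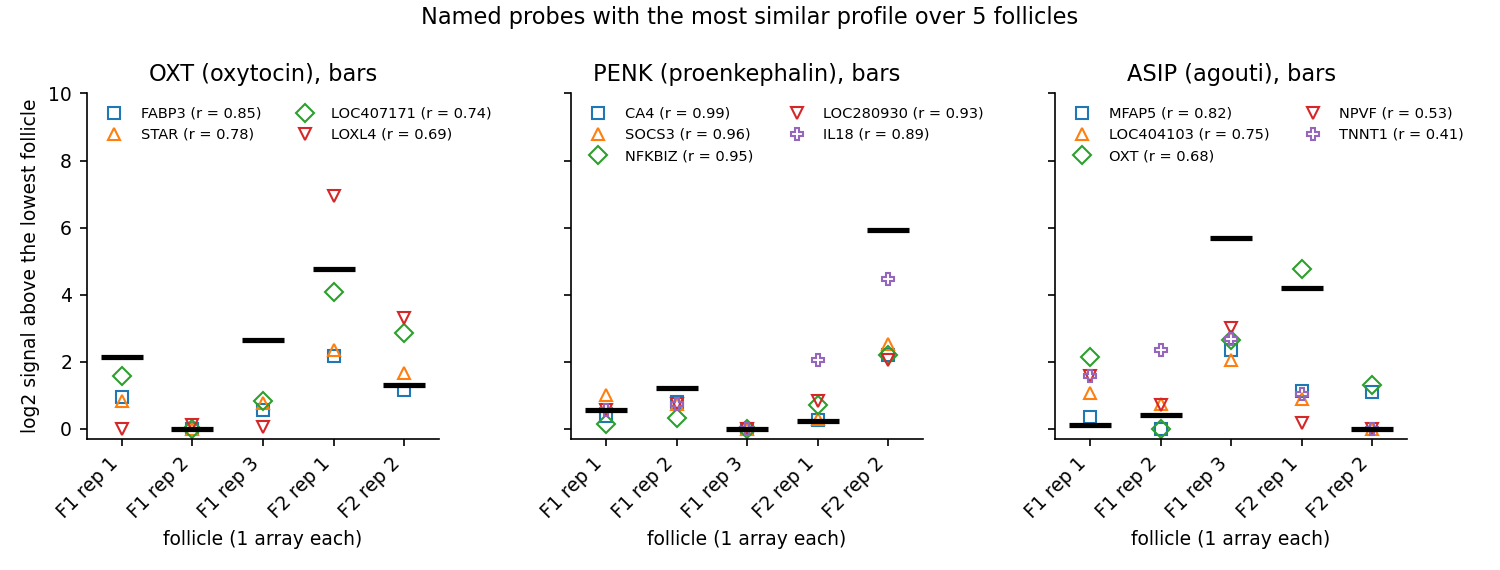
Log2 signal above the lowest follicle for each member (black bars) and for the named probes with the highest Pearson's r over the 5 arrays (symbols, 4 for OXT and 5 each for PENK and ASIP), with signals raised to the lowest detected signal. The probes nearest PENK are also highest in F2 replicate 2 but stay below it there, and all of those nearest ASIP stay below it in F1 replicate 3.

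The other genes of the peptide system were taken from 6 lists of precursors, processing enzymes, granule cargo, inactivating enzymes, receptors with their partners, and genes of the ovulatory surge and luteinization. Of 102 genes, 49 had a probe, 17 were not detected on any array, and 25 passed the filter. Between F1 and F2, 9 of these 25 had limma adjusted p under 0.05, 5 toward the F1 and 4 toward the F2. Of the 9, PTHLH, OXTR, TNFAIP6, TAC3 and PCSK1 met the detection filter only through the group in which they were higher, so their p-values and the count are conditioned on that difference and give no support of their own. In a fit restricted to probes detected on all 5 arrays, 5 of 19 list genes were called, 2 toward the F1 and 3 toward the F2. That fit called 666 of 4861 probes, 396 toward the F1 and 270 toward the F2. Over all 5528 probes 11.5% were called, 6.39% toward the F1 and 5.08% toward the F2. The median log2 difference F1 minus F2 was 0.41 over the 25 genes and 0.27 over all tested probes. The latter was 0.06 when arrays were scaled by their 75th percentile and 0.05 after quantile normalization, so this shift depended on the scaling. Folds between the groups below come from the difference of the group means on the log2 scale. Where a spot of the dimmer group was not detected, the signals of that group were first raised to the lowest detected signal. The median fold range over the 25 genes was 1.68 for the F1 and 1.499 for the F2, against 1.59 and 1.32 over all tested probes. The 1.68 is the value of PCSK1 and TAC3, which were not detected in any F1. It thus carries the detection limits of the F1 arrays and does not measure variation between the F1.

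Of 32 precursors other than the members, 19 had a probe, 9 were not detected on any array and 6 were tested. PTHLH, the parathyroid hormone-related peptide, and INSL3, a relaxin-like hormone of theca cells, had more signal in the F1, and TAC3, the neurokinin B precursor, in the F2. PTHLH was 0.318, 0.100 and 0.138 in the F1 and not detected in either F2, and the F1 exceeded the F2 at least 10.5-fold (limma adjusted p = 0.00548). Since PTHLH met the detection filter through the F1 alone, this p-value gives no support of its own. INSL3 was 39.2, 78.2 and 44.7 in the F1, saturated on 2 of these arrays, against 5.49 and 3.67 across the F2, and the F1 exceeded the F2 at least 11.5-fold (limma adjusted p = 0.00394). TAC3 was 0.0384 and 0.0295 in the F2 and not detected in the F1, and the F2 exceeded the F1 at least 2.01-fold (limma adjusted p = 0.00738).

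INSL3 had the highest mean signal of the precursors. ADM, the vasodilator adrenomedullin, gave 9.44, 40.0 and 7.17 across the F1 against 8.21 and 24.8 across the F2. Its groups thus overlapped as those of OXT and ASIP did (log2 difference -0.03, limma adjusted p = 0.980). GAL and POMC, the precursors of galanin and of the melanocortins with beta-endorphin, were detected in all follicles and did not pass the test (limma adjusted p = 0.414 and 0.423). POMC gave 0.574, 0.945 and 0.726 across the F1 against 0.558 and 0.549 across the F2. The relatives of the members were weak. AVP, which is next to OXT in the gene order of the ARS-UCD2.0 assembly, was detected in F1 replicate 1 alone at 0.0301, and the opioid precursors PDYN and PNOC and the agouti-related AGRP were not detected on any array.

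Among 7 processing enzymes with a probe, 5 were tested and PCSK1 was called. PCSK1 was 0.0961 and 0.0214 in F2 replicates 1 and 2 and not detected in the F1, and the F2 exceeded the F1 at least 2.72-fold (limma adjusted p = 0.00357). Because PCSK1 met the detection filter through the F2 alone, this p-value gives no support of its own. F2 replicate 1, the follicle with the most OXT, was also its highest. With signals raised to the lowest detected signal the adjusted p of PCSK1 was 0.119, and that of TAC3 0.0791, so both calls rest on how undetected signals were treated. PAM had the highest mean signal of the list, with 3.59, 3.20 and 2.20 across the F1 against 1.23 and 1.82 across the F2 (log2 difference 0.97, limma adjusted p = 0.127). Of the granule proteins, 3 were tested and none was called, and the brightest, SCG2, had a log2 difference of 1.10 (limma adjusted p = 0.160).

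From the list of inactivating enzymes, ECE1 was called. It is the endothelin-converting enzyme, which forms active endothelins from their precursors and also cleaves other small peptides. The other gene of that list tested, PREP, had a log2 difference of 0.01 (limma adjusted p = 0.987). ECE1 gave 0.851, 0.673 and 0.847 across the F1 against 0.150 and 0.125 across the F2, and the F1 mean exceeded the other 5.75-fold (limma adjusted p = 0.00357).

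Receptors for the member peptides were few on the array. OXTR, the oxytocin receptor, was 0.0470, 0.0356 and 0.132 in the F1 and not detected in either F2, and the F1 exceeded the F2 at least 3.89-fold (limma adjusted p = 0.00201). Every F1 thus had a detected OXTR signal, whereas OXT itself was detected in all 5 follicles. The vasopressin receptor AVPR2, the brightest of the list, had a log2 difference of 0.38 (limma adjusted p = 0.534). The opioid receptor OPRM1, the melanocortin receptors MC2R and MC4R and attractin (ATRN), a partner of agouti, were not detected on any array. MC1R, the melanocortin receptor of pigment cells, was detected in F2 replicate 1 alone at 0.0187.

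Of the genes of the surge and of luteinization, 7 were tested, and 2 were called toward the F2 and 1 toward the F1. PTGES, which makes prostaglandin E2, was 0.0695, 0.121 and 0.0768 across the F1 against 0.913 and 0.701 across the F2 and showed a 9.25-fold excess for the F2 (limma adjusted p = 0.00338). TNFAIP6, a hyaluronan-binding protein of the cumulus matrix, was 1.04, 0.151 and 1.14 in the F1, detected in F2 replicate 2 alone among the F2, and the F1 exceeded the F2 at least 26.2-fold (limma adjusted p = 0.0435). The filter was met through the F1 alone, so the p-value of TNFAIP6 gives no support of its own. STAR, CYP11A1, HSD3B1 and FDX1 of the steroid pathway did not pass the test. CYP11A1, which makes pregnenolone and had the highest mean signal of the list, had a log2 difference of 0.97 (limma adjusted p = 0.0993), and STAR one of -1.48 (limma adjusted p = 0.0593).

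**Figure D4:**
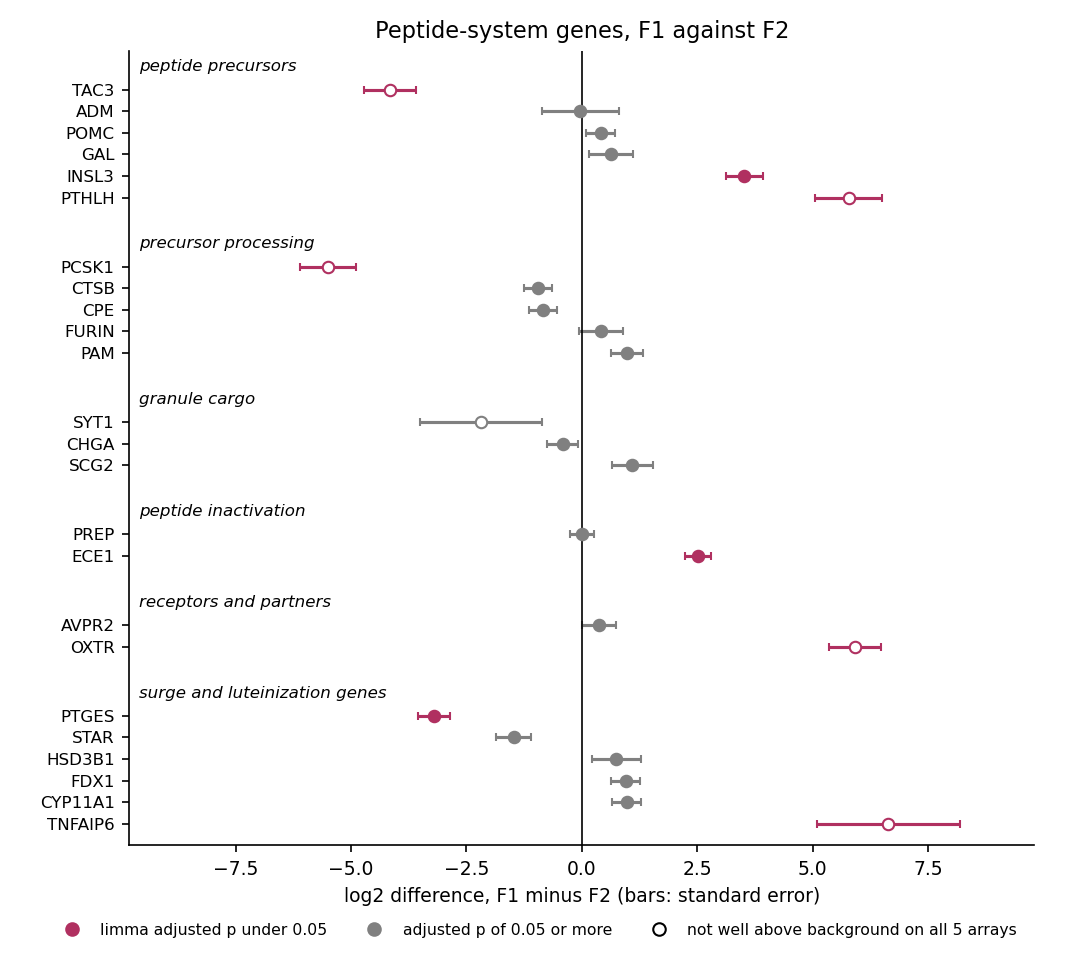
Log2 difference F1 minus F2 with its standard error for 24 of the 25 tested genes of the peptide-system lists, in red where limma adjusted p was under 0.05 and open where the probe was not well above background on all 5 arrays. PCSK1 lies at -5.50 and OXTR at 5.92, and the 16 genes in grey did not pass the test. With signals raised to the lowest detected signal, the differences of PCSK1 and OXTR were -1.44 and 1.96.

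Calls were lost when an F2 was left out. The F1 and F2 signals of each gene named in this paragraph did not overlap. Leaving out 1 follicle could therefore not turn a direction, and the kept directions are no check. When F2 replicate 1 was left out, limma gave an adjusted p of 0.0843 for INSL3, 0.0520 for ECE1, 0.176 for TAC3, 0.0944 for PTGES, 0.0631 for PTHLH, 0.301 for TNFAIP6 and 0.101 for OXTR. When F2 replicate 2 was left out, it was 0.0667 for INSL3 and PTHLH, 0.0933 for TAC3, 0.0602 for TNFAIP6 and 0.0576 for OXTR. The log2 differences without 1 or the other F2 were 3.81 and 3.23 for INSL3, 6.79 and 4.77 for PTHLH, 5.92 each time for OXTR, -3.96 and -4.34 for TAC3, and 4.14 and 9.14 for TNFAIP6. Without F2 replicate 1 they were 2.65 for ECE1 and -3.02 for PTGES. Both F2 signals of OXTR lay below the floor, so leaving out either F2 could not change its difference or its direction. The unchanged 5.92 is therefore no check of OXTR, and its size was set by the floor. The sizes for PTHLH, TAC3 and TNFAIP6 also rested on undetected signals. With signals raised to the lowest detected signal, the log2 difference over all follicles was 1.96 for OXTR. On that scale it was 3.40 for PTHLH, -1.01 for TAC3 and 4.71 for TNFAIP6. The TNFAIP6 call was also lost without F1 replicate 1 (limma adjusted p = 0.117) and without F1 replicate 3 (limma adjusted p = 0.109). With 1 F2 left, that follicle was assumed to vary as the F1 did.

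Cell type markers also moved between the groups, and in bulk RNA fewer cells of a type and less RNA per cell cannot be told apart. All 6 granulosa markers with a probe were called toward the F1, and their summed signal ran from 173 to 237 there against 6.84 to 6.86 for the F2. INHA and INHBA were saturated on all 3 F1 arrays and FST on 2, so the F1 sums are lower bounds and these probes have no order there, and INHBA was the brightest in the F2. Of 6 theca markers 4 were called toward the F1, led by INSL3 in the F1 and STAR in the F2, with sums of 59.6 to 96.6 and 19.6 to 30.4. Higher in the F2 were 1 of 4 tested stroma markers (LUM), 1 of 4 endothelial markers (SELP), 2 of 3 leukocyte markers (CD14 and CD3E) and the adipocyte marker FABP4, and the brightest of these lists in the F2 were DCN, SELP, ITGB2 and FABP4. In the F1 TEK was the brightest endothelial marker. Of the called markers, CYP19A1, FSHR and LHCGR met the detection filter only through the F1, and CD3E and FABP4 only through the F2. The calls of these markers are conditioned on that difference and give no support of their own. Over all tested probes 6.39% were called toward the F1 and 5.08% toward the F2. Of the oocyte markers ZP3 was detected in all follicles, and GDF9, ZP4 and NLRP5 in none.

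The F2 that differed 11.0-fold in OXT had granulosa sums of 6.86 (replicate 1) and 6.84 (replicate 2), and theca sums of 30.4 and 19.6. The near-equal granulosa sums hold markers that ran in opposite directions. INHA (2.17 against 1.73) and INHBA (3.41 against 3.19) were higher in replicate 1. FST (1.04 against 1.49), AMH (0.225 against 0.388) and CYP19A1 (0.00650 against 0.0279) were higher in replicate 2. Theca markers also ran in both directions. STAR (16.1 against 9.91), CYP11A1 (8.64 against 5.86) and INSL3 (5.49 against 3.67) were higher in replicate 1. CYP17A1 (0.146 against 0.163) and NR5A1 (0.0196 against 0.0427) were higher in replicate 2, and LHCGR was detected in neither. The part of granulosa or theca cells in the OXT signal was not tested. Of 7 melanocyte markers, 2 had a probe, TYR and MITF. Neither was detected on any array, F1 replicate 3 and F2 replicate 1 included. Melanocytes are the cell type in which agouti is best known to act, and their part in the ASIP signal was not tested. For PENK, F2 replicate 2 also had the highest summed signal of the stroma markers, 17.1 against 5.70 to 10.1, of the endothelial markers, 1.11 against 0.156 to 0.763, and of the leukocyte markers, 1.61 against 0.873 to 1.35. These sums were carried by DCN (12.2) and ITGB2 (1.46) for stroma and leukocytes and by SELP (0.864) for the endothelium. Other markers ran the other way: COL1A2 was lowest in F2 replicate 2 (0.638), and CD14 and CD3E were 0.113 and 0.0242 there against 0.140 and 0.0337 in F2 replicate 1. The part of these cell types in the PENK signal was not tested.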

How the data were processed

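Cy3-labelled cRNA of 3 F1 and 2 F2 was measured on 5 single-colour arrays. The deposited scanner files (Feature Extraction 9.5.3.1 per the file headers) hold the intensity of each spot: a processed signal with its background subtracted, its error, a raw mean and flags. The authors also deposited a table of ratios, each the processed signal over the GAPDH median of its array, with cells left empty where a spot was weak, saturated or outlying.

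Processed signals were divided by the median of the 100 GAPDH spots, raised to a floor of 0.001 of it and put on the log2 scale. Of 50815 values, 12494 were at or below 0. A single spot with an outlier flag was left out. F1 and F2 were compared with the moderated linear model of limma (version 3.58.1, run under R version 4.3.3). P-values were adjusted by Benjamini-Hochberg over 5528 probes, with a threshold of 0.05. Counts, folds and likeness were computed in Python 3.11.15 with pandas 2.3.3 and numpy 2.4.6. The number of arrays limits the precision. The fit was tested on simulated data, where it recovered 8.62% of log2 changes of 1 and 75.0% of log2 changes of 2. Of 145 calls there, 13 were false. A gene that did not pass the test may therefore still differ.

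RefSeq accessions were given for 1415 probes, and 1364 of these found a symbol (ARS-UCD2.0, used for names and gene order alone). The rule for named genes took the members, every called gene and the brightest gene of each peptide list, the 5 named probes nearest each member, and the brightest gene per cell type list and group. Some genes that this rule takes are not reported here. ADM, GAL, POMC, PREP, AVP, PDYN, PNOC, AGRP, the receptors not detected, the steroid pathway genes, further cell markers and the probes sharing a member's pattern were named after their values had been seen. For a gene with several probes, the brightest counted. The members and lists were chosen with earlier results of these data known.

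The alternatives were other scalings, normexp background correction (offset 50), the deposited ratios, other floors and filters, a replicate block and leaving out each follicle. The fold scale that raises signals to the lowest detected signal was chosen after seeing the data. All slides held 1 array of the study, so slide could not be used as a block.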

Additional observations from a re-analysis of the deposited data

How the results depend on the processing

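Between F1 and F2, 634 probes and 9 peptide-system genes were called. Filtering on detection on at least 1 array gave 344 probes, and no filter gave 214 probes and 3 peptide-system genes, where more weak probes entered the adjustment. Detection on all 5 arrays gave 666 of 4861 probes and 5 of 19 peptide-system genes. Leaving out each follicle gave 160 to 550 probes and 2 to 10 genes, lowest without F2 replicate 1; without F2 replicate 2 there were 200 probes and 4 genes, and without F1 replicate 1 344 probes. The within-group range exceeded the group difference in 3485 of 5528 probes, and in 6708 of 10162 without a filter.

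The OXT difference F1 minus F2 ran from -3.17 to 0.29 when each follicle was left out, turning to 0.29 without F2 replicate 1, and its F1 range from 0.50 to 2.66. With the floor of 0.001, the PENK range in the F1 was 4.84. It was 1.29 with normexp, 1.21 at the lowest detected signal and 0 to 4.84 with each F1 left out, and its F2 difference fell from 6.59 to 2.74 with normexp. The ASIP difference of 0.54 turned to -0.024 at the lowest detected signal, to -1.31 without F1 replicate 3 and to -2.21 without F2 replicate 2, with a range of -2.21 to 3.29. Its F1 range was 0.56 to 5.83 with each F1 left out, and its F2 difference 1.64 with normexp. The cause of these changes was not tested. The deposited ratios gave values for OXT alone, since cells of PENK and ASIP are empty.

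TNFAIP6, with a log2 difference of 6.64, missed the threshold at the 75th percentile (6.59, limma adjusted p = 0.0591), after quantile normalization (6.66, 0.0553) and with detection on at least 1 array (6.64, 0.115), where its difference hardly moved. PCSK1 and TAC3 lost the call with normexp (log2 difference -0.62 and -0.31, adjusted p = 0.220 and 0.621). In that fit limma assigned the same spread to every probe, so its p-values take no account of a probe's own spread. Samples with the same replicate number are not known to share a cow, and their deviations correlated at 0.04 and 0.13. With a replicate block 578 probes and 9 peptide-system genes were called, and TNFAIP6 had an adjusted p of 0.101. Weak signals limit PENK and ASIP, which were not above background in 4 and 2 of the 5 follicles.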
